A study of Rattus norvegicus with 8 samples.

Results

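The genes described here are 39 rat genes of the lysosome and of autophagy, picked by symbol from knowledge of the pathway. They comprise 9 lysosomal proteases, 9 glycosidases and lipid hydrolases, 3 lumenal cofactors, 6 membrane proteins, 2 transcription factors and 10 genes of the autophagy machinery. Every probe whose sequence identifier a table of RefSeq accessions pairs with one of these symbols was taken, which gave 47 of the 45598 probes on the array. RNA was taken from the injected side, in the *substantia nigra* (SN), of adult female Sprague-Dawley rats, killed 20 weeks after surgery and, per the methods, 3 months old when the study began. In the AAV-αSyn group (4 arrays) the SN had received an AAV6 vector carrying wild-type human α-synuclein, and in the AAV-Null group (4 arrays) an AAV6 null vector. The vectors were given at different titres, the AAV-αSyn vector at the higher one, so titre and transgene cannot be told apart. No source used here names the promoter that drives the transgene. The methods describe SN tissue dissected brain by brain and call the replicates biological, while the labels do not tie an array to a rat, and p-values measure the spread between these arrays.

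Lysosomes are acidic organelles that break down proteins, glycans and lipids. Autophagy delivers cytoplasmic cargo and damaged organelles to them inside a double membrane that fuses with the lysosome. α-Synuclein is among the proteins that lysosomes degrade, and several of these genes are linked to lysosomal storage diseases or to Parkinson's disease. TFEB and TFE3 are transcription factors that move to the nucleus when lysosomes are stressed or nutrients are scarce, and bind a short palindrome, the CLEAR element, in the promoters of lysosomal genes.

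Promoter sequence shows which members carry that element near their start. RefSeq promoters of the rat assembly GRCr8 (250 bases before and 50 after the annotated start) were at hand for 33 of the 39 genes, and not for *Ctsb*, *Hexa*, *Asah1*, *Psap*, *Becn1* and *Map1lc3a*. The palindrome TCACGTGA, which reads the same on both strands, was found in 5 of the 33 (15.2%), against 260 of all 33469 promoters in the table (0.777%). The core CACGTG, which includes the longer motif, was found in 8 (24.2%), against 2148 (6.42%). These are matches of letters and not sites shown to be bound. The 30 bases around each match to the longer motif are shown, with the motif in capitals, because the later comparison of members with and without it rests on these matches:
*Ctsd*, chr1:206968814-206968843, minus strand, 11 bases before the start: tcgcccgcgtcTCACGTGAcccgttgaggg
*Galc*, chr6:123245562-123245591, minus strand, 21 bases before the start: gggtgccacagTCACGTGAcccgcacaatg
*Lamp1*, chr16:83075111-83075140, minus strand, 66 bases before the start: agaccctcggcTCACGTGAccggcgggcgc
*Lamp1*, chr16:83075084-83075113, minus strand, 39 bases before the start: cgcggcactgtTCACGTGAcaggcgctgcc
*Cln3*, chr1:190597950-190597979, minus strand, 39 bases before the start: cacgggtactgTCACGTGAtccccaacctg
*Mcoln1*, chr12:6358250-6358279, plus strand, from base 3 after the start: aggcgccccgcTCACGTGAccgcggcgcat
*Lamp1* alone held the motif at 2 places. *Glb1*, *Gaa* and *Atg5* held only the core CACGTG, and no match was found in the promoters of *Tfeb* or *Tfe3*.

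The question put to the arrays was whether the RNA of these genes differed between the AAV-αSyn and the AAV-Null groups. All 39 genes, and all 47 of their probes, were well above background on all 8 arrays. Intensities were put on the log2 scale and quantile normalized between arrays, and each gene was represented by its brightest probe. Differences are log2 fold changes, AAV-αSyn minus AAV-Null, tested by limma over all 33853 probes above background on at least 1 array. No member probe had a Benjamini–Hochberg adjusted p under 0.05 in limma, where 5 of all probes tested did (0.0148%). At an unadjusted p under 0.05, 1 of 39 genes was higher in the AAV-αSyn group, *Scarb2*, where 3.31% of all probes were higher. No gene was lower at that threshold, where 2.32% of all probes were. For no gene did the 2 groups of arrays fail to overlap, where 2.57% of all probes lay higher and 1.26% lower without overlap. With shares of this size among all probes, these counts do not set the 39 genes apart from the rest of the array.

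The differences of the members were small. Their median was 0.05, with 24 of 39 above 0 and a range from −0.25 (*Wipi2*) to 0.31 (*Scarb2*), while the median of all probes was 0.01 with 52.4% above 0. Over all 13648 named genes tested, the median was 0.02 with 56.0% above 0. The 95% interval of the difference covered 0 for 38 genes. It lay within ±1 on the log2 scale for all 39 genes and within ±0.5 for 32, which states how large a difference the 8 arrays leave room for. The median standard error was 0.11, so that an interval reached a median of 0.26 to either side. Within each side of the slide, which holds 2 arrays of each group, the median was 0.04 on both sides, and 17 of 39 genes had the same sign on both.

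**Figure D1:**
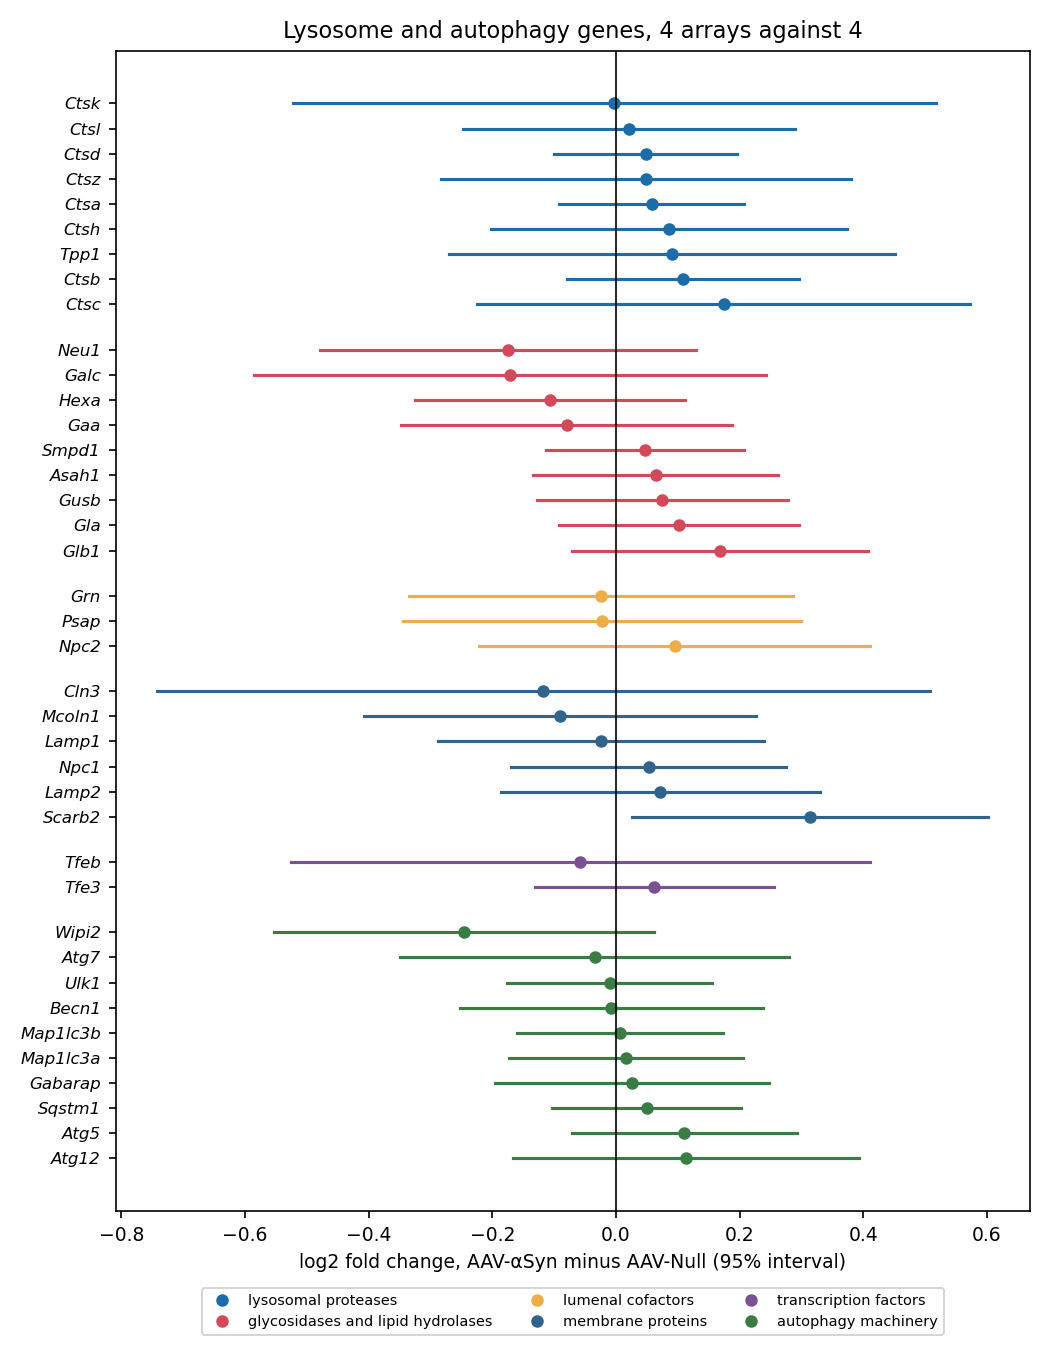
Log2 fold change of each of the 39 genes (x axis, AAV-αSyn minus AAV-Null, 4 arrays against 4), grouped and coloured by class; points are estimates and lines their 95% intervals from limma. The *Scarb2* interval alone, from 0.03 to 0.60, lies clear of 0.

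**Figure D2:**
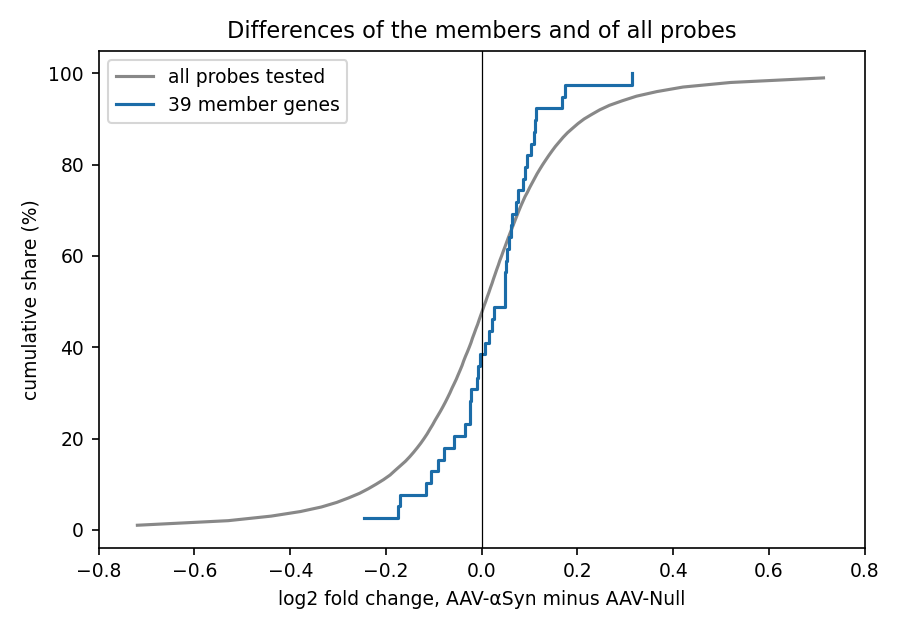
Cumulative share in percent (y axis) of log2 fold changes (x axis) for the 39 genes, drawn as steps, and for all probes tested, drawn from their percentiles. The medians are 0.05 and 0.01, the members end at −0.25 and 0.31, and the curve of all probes reaches farther in both directions. Reach depends on the number of probes in a set, so it does not set the 39 genes apart.

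The lysosomal proteases degrade proteins in the acidic lumen, and 8 of these 9 genes had a difference above 0, with a median of 0.06. *Ctsd* encodes cathepsin D, the main aspartic protease of the lysosome and a protease known to cleave α-synuclein. Its log2 intensity was 15.44, 15.37, 15.44 and 15.42 on AAV-Null arrays 1 to 4 and 15.50, 15.39, 15.45 and 15.51 on AAV-αSyn arrays 1 to 4. The groups overlapped, and the difference was 0.05 with a 95% interval from −0.10 to 0.20. *Ctsb*, which encodes the cysteine protease cathepsin B, was 16.27, 16.14, 15.98 and 16.11 on the AAV-Null arrays and 16.29, 16.26, 16.20 and 16.18 on the AAV-αSyn arrays. Its lowest value was on AAV-Null array 3 and the difference was 0.11, with an interval from −0.08 to 0.30. *Ctsl*, which encodes the related enzyme cathepsin L, differed by 0.02, with an interval from −0.25 to 0.29.

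The protease with the largest difference was *Ctsc*, which encodes cathepsin C, an enzyme that activates serine proteases of immune cells. It was 8.53, 8.44, 7.85 and 8.51 on the AAV-Null arrays and 8.80, 8.45, 8.39 and 8.39 on the AAV-αSyn arrays. Array 3 of the first group was far below and array 1 of the second above the rest, while the other 6 arrays lay between 8.39 and 8.53. The difference of 0.17 (standard error 0.17) had an interval from −0.22 to 0.57 (limma, adjusted p = 0.973). Without AAV-Null replicate 3 it was 0.01, the lowest of its values with an array left out. The carboxypeptidases *Ctsa* (0.06), which also shields β-galactosidase and neuraminidase in a complex, and *Ctsz* (0.05), the aminopeptidase *Ctsh* (0.09) and *Tpp1* (0.09), the tripeptidyl peptidase lost in a childhood storage disease, gave intervals that cover 0. *Ctsk*, the collagen-degrading cathepsin of bone, was at −0.0025, with an interval from −0.52 to 0.52, the widest of the proteases.

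The glycosidases and lipid hydrolases take sugars and lipids apart, and 5 of 9 were above 0, with a median of 0.05. The median was 0.0064 without AAV-Null replicate 3 and 0.08 without AAV-Null replicate 4. *Neu1*, which encodes the lysosomal sialidase, had the largest difference. It was 10.49, 10.90, 11.14 and 10.75 on the AAV-Null arrays and 10.70, 10.65, 10.59 and 10.65 on the AAV-αSyn arrays. The AAV-αSyn arrays lay close together and inside the range of the AAV-Null arrays, whose lowest was array 1 and highest array 3. The difference was −0.18 (standard error 0.13), with an interval from −0.48 to 0.13 (limma, adjusted p = 0.972). On each side of the slide it was −0.18 and −0.17, but it was −0.07 without AAV-Null replicate 3 and −0.28 without AAV-Null replicate 1.

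*Glb1*, the lysosomal β-galactosidase, was 10.95, 10.97, 10.85 and 10.98 on the AAV-Null arrays and 11.31, 10.95, 10.94 and 11.22 on the AAV-αSyn arrays. Arrays 1 and 4 of the AAV-αSyn group were above all others, and its other arrays were level with the AAV-Null group, which gave a difference of 0.17 and an interval from −0.07 to 0.41. *Gla*, the α-galactosidase lost in Fabry disease, differed by 0.10 with an interval from −0.09 to 0.30. *Gaa*, the acid α-glucosidase that clears glycogen, was at −0.08 and *Hexa*, the subunit of hexosaminidase lost in Tay-Sachs disease, at −0.11. *Galc*, the galactosylceramidase of myelin turnover, was at −0.17, with an interval from −0.59 to 0.24. It was −0.32 without AAV-Null replicate 4 and −0.07 without AAV-Null replicate 3. *Gusb*, the β-glucuronidase, was at 0.07. The ceramide pathway enzymes *Asah1* (acid ceramidase) and *Smpd1* (acid sphingomyelinase) differed by 0.06 and 0.05, and their intervals reached from −0.13 to 0.26 and from −0.11 to 0.21.

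The lumenal cofactors are soluble proteins that assist the hydrolases or carry lipids, and 1 of 3 was above 0, with a median of −0.02. *Npc2* encodes the carrier that hands cholesterol to the NPC1 protein of the lysosomal membrane. It was 12.59, 12.27, 12.72 and 12.16 on the AAV-Null arrays and 12.65, 12.58, 12.52 and 12.37 on the AAV-αSyn arrays. The AAV-αSyn values lay within the range of the AAV-Null arrays, and the difference was 0.10 (standard error 0.14), with an interval from −0.22 to 0.41. It was 0.0034 without AAV-Null replicate 4, 0.04 without AAV-Null replicate 2 and 0.19 without AAV-Null replicate 3. *Grn* encodes progranulin, a secreted and lysosomal protein that microglia make in abundance. Its values were 12.19, 12.19, 12.65 and 12.08 on the AAV-Null arrays and 12.40, 12.25, 12.26 and 12.09 on the AAV-αSyn arrays, a difference of −0.02 with an interval from −0.33 to 0.29. *Psap*, the precursor of the saposins that present sphingolipids to their enzymes, was 13.99, 13.97, 14.12 and 13.87 on the AAV-Null arrays and 13.55, 14.13, 14.13 and 14.04 on the AAV-αSyn arrays. Its difference of −0.02 rested on the low value of AAV-αSyn array 1, with the other 3 arrays of that group between 14.04 and 14.13.

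The membrane proteins form the glycocalyx, channels and transporters of the lysosome, and 3 of 6 were above 0, with a median of 0.01. *Scarb2* encodes LIMP-2, the receptor that carries glucocerebrosidase, the enzyme deficient in Gaucher disease, to the lysosome. Its log2 intensity was 8.94, 8.52, 8.66 and 8.51 on the AAV-Null arrays, with a mean of 8.66 ± 0.20 (SD, n = 4). On the AAV-αSyn arrays it was 9.01, 8.78, 8.93 and 9.16, with a mean of 8.97 ± 0.16 (SD, n = 4). The highest AAV-Null array lay above the 2 lowest AAV-αSyn arrays, so the groups overlapped. The difference was 0.31 (standard error 0.13), with an interval from 0.03 to 0.60, and limma gave a p of 0.0364 before and 0.850 after the Benjamini–Hochberg adjustment. The exact permutation test over all 70 splits of the arrays, two-sided, gave 0.0857, where the smallest it can give is 0.0286. The difference was 0.46 on 1 side of the slide and 0.17 on the other. It stayed above 0 with each array left out, from 0.25 to 0.41, but the unadjusted p was over 0.05 in 6 of these 8 cases, and also with 75th percentile or cyclic loess scaling too.

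*Lamp1* and *Lamp2* encode the 2 major glycoproteins of the lysosomal membrane, and LAMP2 in one isoform is the receptor of chaperone-mediated autophagy. *Lamp1* differed by −0.02, with an interval from −0.29 to 0.24. The 2 probes of *Lamp2* gave 0.07 and 0.14, and neither probe's interval excluded 0. *Npc1*, the cholesterol exporter, differed by 0.05 (interval −0.17 to 0.28), and *Mcoln1*, the calcium channel TRPML1, by −0.09 (interval −0.41 to 0.23). *Cln3*, the gene of juvenile Batten disease, was 7.06, 7.23, 8.31 and 7.16 on the AAV-Null arrays and 7.55, 7.27, 7.39 and 7.09 on the AAV-αSyn arrays. A single array, AAV-Null array 3, lay more than 0.7 above every other, and the difference of −0.12 had the widest interval of all members, from −0.74 to 0.51. Without AAV-Null replicate 3 the *Cln3* difference changed sign, to 0.17.

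The transcription factors split, with 1 of 2 above 0. *Tfeb*, the main activator of the lysosomal gene programme, was 8.30, 8.45, 9.18 and 8.34 on the AAV-Null arrays and 8.56, 8.70, 8.53 and 8.25 on the AAV-αSyn arrays. AAV-Null array 3 was again the highest, and the difference was −0.06 with an interval from −0.53 to 0.41. The other AAV-Null arrays all lay below the AAV-αSyn mean of 8.51, so the sign of the *Tfeb* difference rested on array 3. *Tfe3* was 11.77, 11.85, 11.58 and 11.89 on the AAV-Null arrays and 11.80, 11.86, 11.82 and 11.86 on the AAV-αSyn arrays. AAV-Null array 3 was the lowest, and the difference of 0.06 (standard error 0.08) had an interval from −0.13 to 0.26 (limma, adjusted p = 0.974). These factors are controlled largely through their place in the cell, which RNA levels do not show.

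The members whose promoters hold TCACGTGA had a median difference of −0.09, with 1 of 5 above 0 and a range from −0.17 (*Galc*) to 0.05 (*Ctsd*). Those with the core CACGTG had a median of −0.05 (n = 8) and those with neither 0.05 (n = 25, range −0.25 to 0.31). Every one of the 8 intervals covered 0. The medians of the genes with a motif changed sign when 1 array was left out. Without AAV-Null replicate 3 the median was 0.06 for the 5 genes with the longer motif (4 of 5 above 0), 0.06 for the 8 with the core and 0.03 for the 25 with neither. With arrays weighted by quality, the medians were −0.01, 0.05 and 0.03.

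The autophagy machinery starts the isolation membrane, elongates it and loads it with cargo, and 6 of its 10 genes were above 0, with a median of 0.01. *Ulk1*, the kinase that initiates autophagy, differed by −0.01 (interval −0.18 to 0.16) and *Becn1*, the scaffold of the lipid kinase that follows, by −0.01 (interval −0.25 to 0.24). *Wipi2* encodes a protein that binds the lipid made by this kinase and recruits the conjugation machinery. Its log2 intensity was 10.34, 9.93, 10.53 and 10.25 on the AAV-Null arrays and 9.89, 9.94, 10.17 and 10.07 on the AAV-αSyn arrays. All of the AAV-αSyn arrays lay below 3 of the AAV-Null arrays, but AAV-Null array 2 was among the lowest of all, so the groups overlapped. The difference of −0.25 (standard error 0.13) had an interval from −0.55 to 0.06 (limma, adjusted p = 0.938; exact permutation test, two-sided, p = 0.143). It was −0.06 on 1 side of the slide and −0.43 on the other, 0.01 when the arrays were weighted by their quality, and −0.16 without AAV-Null replicate 3. Without AAV-Null replicate 2 it was −0.36, with an unadjusted p under 0.05.

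The ubiquitin-like conjugation genes *Atg5* (0.11, interval −0.07 to 0.29), *Atg7* (−0.03, interval −0.35 to 0.28) and *Atg12* (0.11, interval −0.17 to 0.39) attach the LC3 family to membranes. *Atg5* was the only gene of the 39 with a p under 0.05 in limma once AAV-Null replicate 4 was left out, where 8.28% of all probes had one. Of the LC3 family itself, *Map1lc3a* differed by 0.02 (interval −0.17 to 0.21), *Map1lc3b* by 0.01 (interval −0.16 to 0.17) and *Gabarap* by 0.03 (interval −0.20 to 0.25). *Sqstm1*, which encodes the cargo receptor p62, was 15.33, 15.42, 15.39 and 15.50 on the AAV-Null arrays and 15.47, 15.45, 15.49 and 15.43 on the AAV-αSyn arrays, a difference of 0.05 with an interval from −0.10 to 0.20. LC3 and p62 proteins are turned over by autophagy, and RNA does not report on that step.

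**Figure D3:**
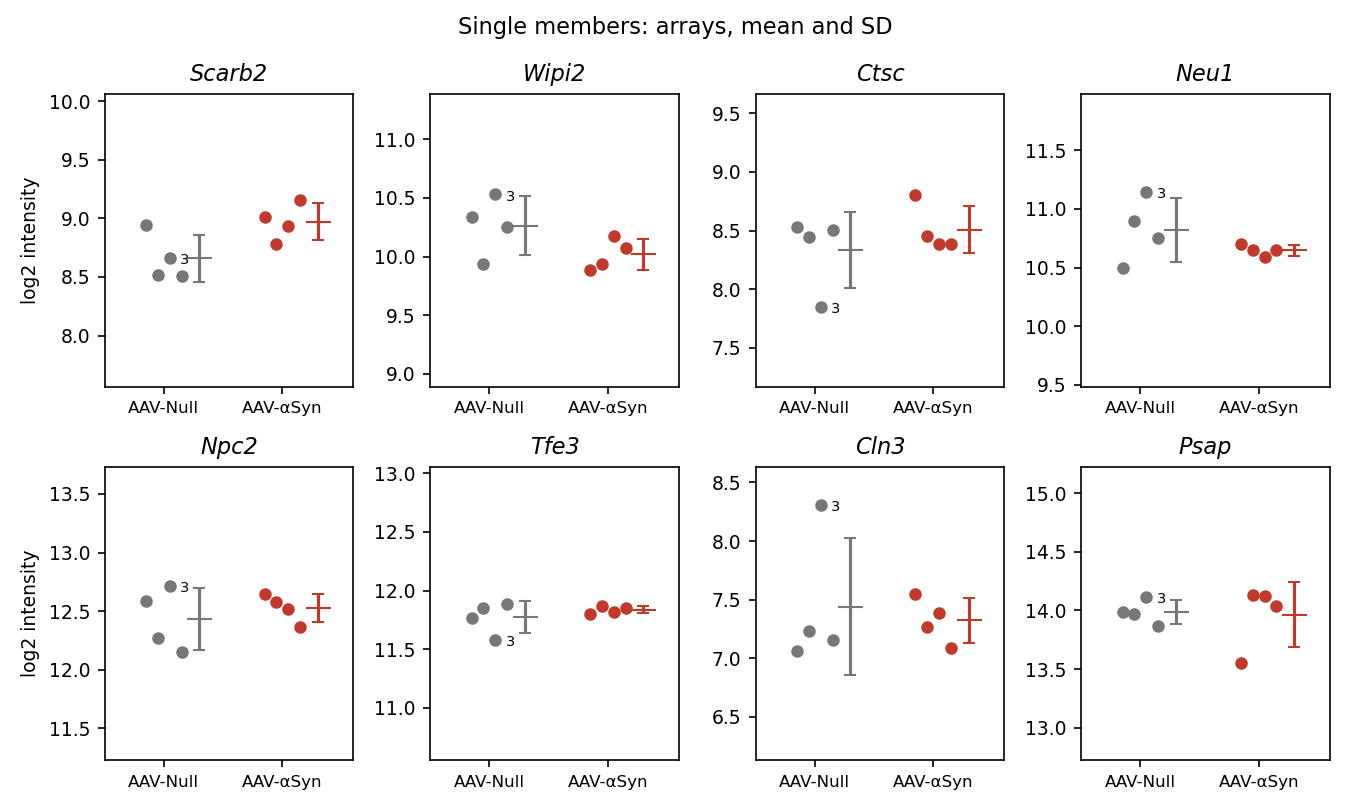
Log2 intensity (y axis, every panel spans 2.5 units) of 8 genes on the 4 AAV-Null and 4 AAV-αSyn arrays; points are arrays, with the mean and SD at the right of each group and AAV-Null array 3 marked. The groups overlap in every panel, and AAV-Null array 3 stands highest for *Cln3* at 8.31 and lowest for *Ctsc* at 7.85.

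AAV-Null array 3 stood apart from its group for these genes. It was the highest or the lowest of the 4 AAV-Null arrays for 33 of 39 genes (84.6%), against 70.3% of all probes, with 17 at the top and 16 at the bottom. Its median absolute distance from the mean of the other 3 was 0.27 over the members, while the other AAV-Null arrays were between 0.11 and 0.16 and the AAV-αSyn arrays between 0.05 and 0.08. Over all probes its distance was 0.26. The distances went both ways within a class. Among the proteases, *Ctsz* and *Tpp1* were 0.53 and 0.47 above the other 3 arrays and *Ctsk* and *Ctsc* 0.87 and 0.64 below them (−0.87 and −0.64). All 3 lumenal cofactors had their highest AAV-Null value on this array, above the mean of the others by 0.18 (*Psap*), 0.38 (*Npc2*) and 0.50 (*Grn*). The share of its spots well above background (76.1%) and its median intensity (282) lay within the 74.8% to 77.5% and 261 to 338 of the 8 arrays, though the intensity was the lowest of the AAV-Null group (282 to 294). It had the fewest spots marked as outliers, 268 against 337 to 418 on the other 7 arrays. Its summed intensity over 5 markers of raphe and hindbrain neurons was 2333, against 580, 565 and 860 on AAV-Null arrays 1, 2 and 4. The part of that difference in the values of the members was not tested.

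**Figure D4:**
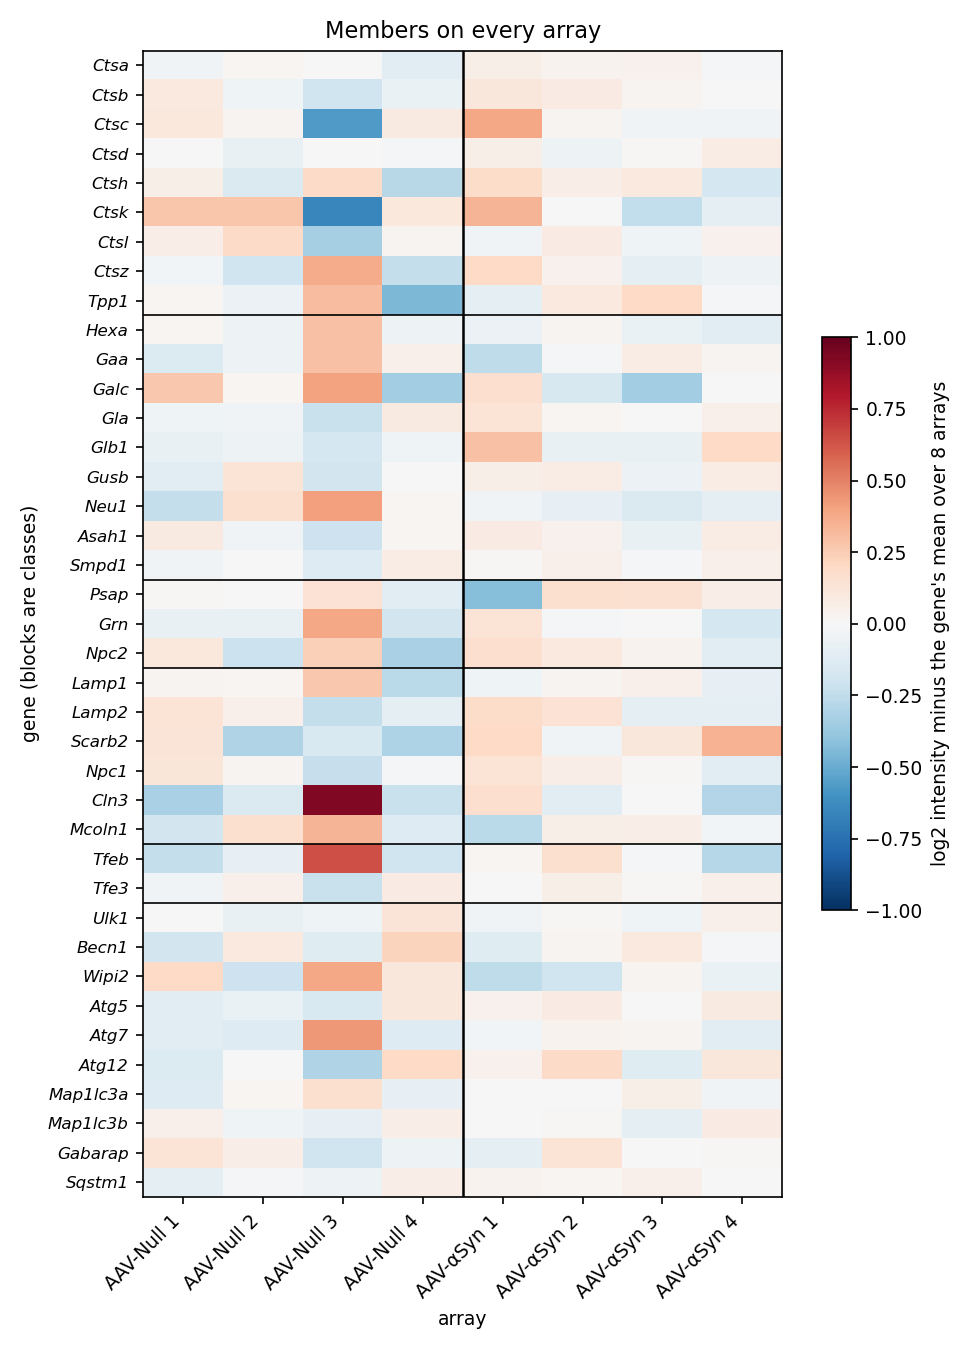
Log2 intensity of each gene minus its mean over the 8 arrays (colour), with genes as rows in blocks by class and arrays as columns, AAV-Null left and AAV-αSyn right of the line. The column of AAV-Null array 3 holds the strongest colours in both directions, and no block has one colour on all arrays of a group.

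**Figure D5:**
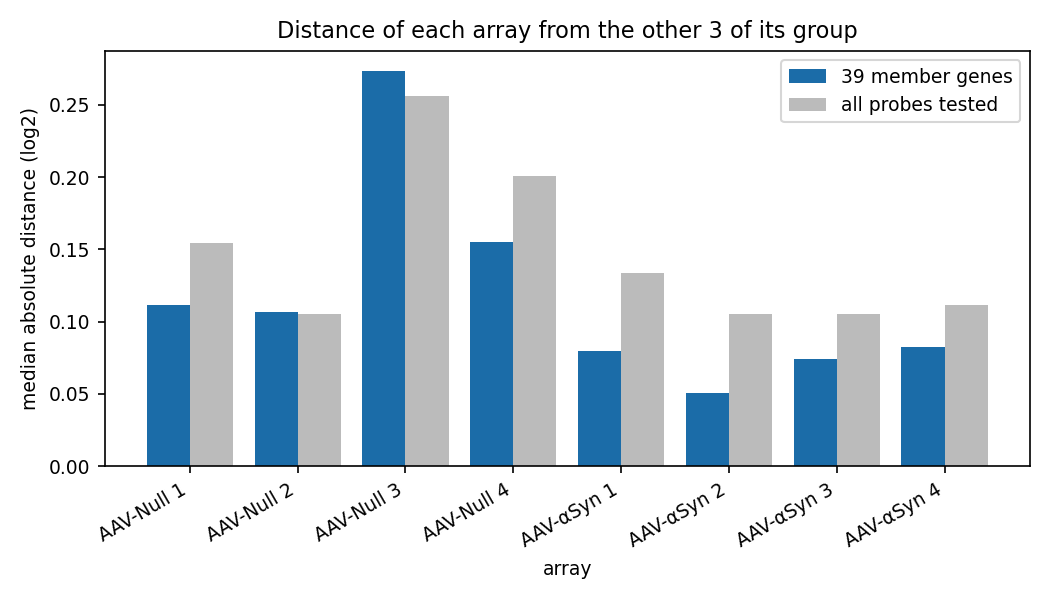
Median absolute distance (y axis, log2) of each array (x axis) from the mean of the other 3 arrays of its group, over the 39 genes and over all probes tested. AAV-Null array 3 is the farthest on both, at 0.27 and 0.26.

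The spread within the groups was compared with and without this array. It was picked because it stood apart in these same values, so a narrower AAV-Null spread without it follows from that choice. The SD was not recomputed without any other array. The SD over arrays was wider in the AAV-Null than in the AAV-αSyn group for 36 of 39 genes (92.3%), against 70.5% of all probes. Without AAV-Null replicate 3 it was wider for 22 of 39 genes (56.4%), against 54.4% of all probes. The median SD of the members was 0.18 in the AAV-Null group, 0.09 without that array, and 0.10 in the AAV-αSyn group. With it left out, no gene of the 39 had an unadjusted p under 0.05 in limma in either direction, where 8.14% of all probes did in that fit (5.64% with all arrays). *Scarb2* was then at 0.32 and the median of the members at 0.03.

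Probes of 1 gene did not always move together on AAV-Null array 3. The brighter probe of *Tfe3* was 0.26 below the other 3 arrays (−0.26) and the dimmer 0.90 above them. Of the 4 probes of *Map1lc3b*, a pair lay below by 0.12 and 0.11 (−0.12 and −0.11) and the others lay above, by 0.17 and 0.54. *Sqstm1* gave −0.03, 0.54 and 0.17, while the probes of *Lamp2* (−0.27 and −0.64) and *Atg7* (0.56 and 0.36) went the same way. Between the groups, no gene's probes differed by more than 0.5 in log2 fold change. The widest gap was that of *Atg7*, where the probes gave −0.03 and 0.28. The probe with 0.28 was dim, with mean log2 intensities of 4.21 (AAV-Null) and 4.49 (AAV-αSyn). Those of the other probe were 8.47 and 8.44.

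The array carries 10 copies of the probes for *Ctsa*, *Ctsd*, *Ctsl*, *Grn* and 1 probe of *Map1lc3b*, which gives the spread of single spots. The copies within an array had an SD between 0.01 and 0.08. For *Ctsl* it was at most 0.05, against an SD of 0.23 between the AAV-Null arrays and 0.06 between the AAV-αSyn arrays. For *Grn* it was at most 0.05, against 0.25 and 0.13. For *Ctsd* it was at most 0.07, against 0.03 and 0.06. The value of an array is the mean of its 10 copies, and the copies measure the error of spots and not that of labelling or of the tissue.

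Other genes of the pathway were counted in 4 lists. Of their 81 genes tested, 2 were higher at an unadjusted p under 0.05 (3.31% of all probes were), 3 lay higher without overlap of the groups (2.57% of all probes did) and none passed the adjustment in limma. These counts too lie near the shares among all probes. None of the 16 V-ATPase subunits, which acidify the lysosome, had an unadjusted p under 0.05, and their median was −0.0012. Those with the smallest p were *Atp6v1h* (0.12), *Atp6ap2* (0.09) and *Atp6v1g2* (0.10). Of 21 further lysosomal enzymes tested, 1 was higher and none lower, with a median of 0.04. It was *Ppt1*, the palmitoyl thioesterase lost in infantile Batten disease, with 12.12, 12.07, 12.06 and 12.16 on the AAV-Null arrays and 12.23, 12.29, 12.25 and 12.25 on the AAV-αSyn arrays. Its groups did not overlap, and the difference was 0.15, with an interval from 0.01 to 0.30 (limma, unadjusted p = 0.0412 and adjusted p = 0.862; exact permutation test, two-sided, p = 0.0286). *Idua*, which encodes the iduronidase that degrades glycosaminoglycans, had a difference of 0.21 with an interval from −0.03 to 0.45.

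Of 25 further autophagy genes tested, 1 was higher and none lower, with a median of 0.06. It was *Uvrag*, which encodes a partner of beclin 1 in the lipid kinase complex, with 8.88, 8.99, 8.95 and 9.05 on the AAV-Null arrays and 9.24, 9.14, 9.19 and 9.24 on the AAV-αSyn arrays. All AAV-αSyn arrays were above all AAV-Null arrays, a difference of 0.23 with an interval from 0.08 to 0.39 (limma, unadjusted p = 0.00921 and adjusted p = 0.701; exact permutation test, two-sided, p = 0.0286). *Pik3c3*, picked because its groups of arrays did not overlap either, encodes the lipid kinase itself and differed by 0.07, with an interval from −0.07 to 0.21. *Rab7a* (0.11) and *Atg101* (−0.15) followed *Uvrag* by p. Of 19 genes of mTORC1 and TFEB control, none had a p under 0.05. The smallest p-values belonged to *Flcn* (0.20), *Ppp3cb* (−0.16) and *Fnip1* (0.12), and the median of the list was 0.01.

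The cell types behind these RNAs are set beside them because lysosomal genes are expressed unevenly between cell types. Summed levels are sums of linear normalized intensity over a marker list. The 12 microglial markers, the cells richest in several cathepsins and in *Grn*, had a median difference of 0.06 with none at a p under 0.05, and their summed level was 51668 to 63415 on the AAV-Null arrays and 48401 to 65978 on the AAV-αSyn arrays. The markers of dopaminergic neurons were lower in the AAV-αSyn group, with 7 of 7 below 0, 4 of them at an unadjusted p under 0.05, and a median of −0.38. Among all probes, 2.32% were lower at that threshold. Their summed level was 153384 to 195265 against 119512 to 130119, with no overlap. This linear sum is weighted toward *Th*, the brightest of the 7. Only *Th* and *Ddc* lay lower without overlap as single markers, where 1.26% of all probes did. *Th*, tyrosine hydroxylase, the defining enzyme of these neurons, was well above background on all 8 arrays and differed by −0.52 (limma, adjusted p = 0.484; exact permutation test, two-sided, p = 0.0286). In RNA of whole tissue, fewer cells of a type and less RNA per cell cannot be told apart.

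Markers of raphe and hindbrain neurons were higher in the AAV-αSyn group. All 5 were above 0, 4 of them at an unadjusted p under 0.05, with a median of 2.30. Among all probes, 3.31% were higher at that threshold. The marker lists were chosen with earlier results of these data known, so these counts are no independent evidence. *Slc6a5*, a neuronal glycine transporter, differed by 1.28 with no overlap (limma, adjusted p = 0.0424), but no probe of the array passed the adjustment with the replicate number as a block. The summed level was 565 to 2333 (the highest on AAV-Null array 3) against 2489 to 6195. In the AAV-αSyn group, 3 of 4 arrays had *Dbh* above background, while none did in the AAV-Null group. Its lowest value, 1.31, was that of AAV-αSyn array 1, under the AAV-Null range of 1.34 to 2.26, so its groups overlapped. The groups also overlapped for *Tph2*, *Slc6a4* and *Fev*, so *Slc6a5* was the only 1 of the 5 markers without overlap. Astrocyte, oligodendrocyte, general neuronal and endothelial markers had medians between −0.01 and 0.05, and their summed levels overlapped between the groups. *Syt1*, a vesicle protein of neurons, was the 1 general neuronal marker with an unadjusted p under 0.05, at −0.40. The part of these shifts in the values of the lysosome and autophagy genes was not tested.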

How the data were processed

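The authors labelled RNA of 8 SN samples with Cy3 and hybridised each to 1 Agilent array. They deposited for every spot the background-corrected intensity of Feature Extraction (12.0.3.2 per the file headers, 11.5.1.1 per the submitters' processing notes) and the software's calls of spots well above background, and a matrix of quantile-normalized log2 values. The methods name limma and 3 arrays per group, where 4 are given here.

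From the deposited intensities, control and outlier spots were left out, probes with at least 0.5 of their spots well above background on at least 1 array were kept, and log2 values were quantile normalized, with the mean taken over a probe's spots. Groups were compared with limma 3.58.1 (R 4.3.3; lmFit, eBayes, two-sided, Benjamini–Hochberg over 33853 probes). The procedure was tested on simulated data. The number of arrays limits the precision. Names came from a RefSeq table of GRCr8, which named 21229 of 45598 probes. It named no probe of *Naglu*, *Sgsh*, *Ids*, *Pik3r4*, *Atg2b*, *Atg4b* or *En1*.

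Every member is named; values on each array are given for those with an unadjusted p under 0.05 or groups without overlap, for the largest difference of each class, and for others picked after their values were seen. The pathway lists name up to 3 genes by p; some genes that these rules select are not reported here. Members and lists were chosen with earlier results of these data known. As alternatives, arrays were scaled by the 75th percentile or by cyclic loess, background was corrected by normexp (offset 50, on the median signal), the dim-probe filter was dropped or set to 4 or 8 arrays, the deposited matrix was used, the fit was made with an intensity trend, with robust variances or with weights for arrays, the replicate number or slide side was a block, probes of a gene were averaged or limited to curated accessions, and arrays were left out in turn.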

Additional observations from a re-analysis of the deposited data

Results flagged for a closer look

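Of the 78 sets of 4 arrays examined (39 genes in 2 groups), 6 had 1 array whose gap to the next, as a share of the group's range, passed Dixon's 95% limit for 4 values, where chance alone gives about 3.9 (1 in 20). Of these, 3 were AAV-Null replicate 3. For *Atg7* it was 8.89 and the others lay between 8.32 and 8.35 (gap over range 0.961). For *Cln3* it was 8.31 against 7.06 to 7.23 (0.861), and for *Ctsc* 7.85 against 8.44 to 8.53 (0.876). In the AAV-αSyn group, replicate 1 was high for *Ctsc*, at 8.80 against 8.39 to 8.45 (0.848), and low for *Psap*, at 13.55 against 14.04 to 14.13 (0.846). Replicate 3 was low for *Gusb*, at 7.03 against 7.15 to 7.16 (0.888).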

How the results depend on the processing

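No member probe passed the adjustment in limma under any of the 22 alternatives, the lowest adjusted p being 0.158, with array weights (4.49 for AAV-Null replicate 2, 0.219 for AAV-Null replicate 3). At an unadjusted p under 0.05, the count of higher genes was 0 with 75th percentile scaling (*Scarb2* 0.32) and 0 with cyclic loess (*Scarb2* 0.29). In those fits 5.3% and 5.56% of all probes had such a p in either direction. The count was 0 to 1 with an array left out, where 4.26% to 8.28% of all probes had one. It was 1 with array weights, where 17.0% of all probes had one. It was 0 without AAV-Null replicate 2 or 3 or AAV-αSyn replicate 1, 3 or 4, and without AAV-Null replicate 4 the gene was *Atg5* and not *Scarb2*. The count of lower genes was 0 to 1 with an array left out: *Neu1* without AAV-Null replicate 1 (−0.28, against −0.07 without AAV-Null replicate 3) and *Wipi2* without AAV-Null replicate 2 (−0.36). The median of the members was 0.015 with 75th percentile scaling and 0.03 to 0.05 with an array left out, and above 0 in all 22 alternatives, as were those of the proteases and of the glycosidases and lipid hydrolases. With an array left out, these 2 class medians were 0.03 to 0.09 and 0.0064 to 0.08. The medians of the other 4 classes changed sign in some, and that of the lumenal cofactors was 0.10 without AAV-Null replicate 3. The medians by promoter motif were recomputed under these alternatives after seeing the data. *Wipi2* turned to 0.0074 with array weights. *Tfe3* was −0.0023 to 0.10 with an array left out, and below 0 only without AAV-Null replicate 3. The cause was not tested. With the replicate number as a block (replicate block), the median was 0.05, 1 gene was higher (*Scarb2* 0.31), and no call among the members changed. In that fit 6.55% of all probes had an unadjusted p under 0.05. The numbers were not taken as pairs, since the correlations of same-numbered arrays were 0.144, 0.267, 0.041 and −0.002. Those of arrays with different numbers were −0.277 to 0.255. The replicate number equals the array's row on the slide, so this block is a block on slide row too. With the slide side as a block *Scarb2* was 0.31, with its unadjusted p under 0.05. All members were well above background on every array. The standard errors of the *Galc* and *Ctsk* differences were 0.18 and 0.23, against 0.06 for *Ctsd* and *Ctsa*.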
